A study of Homo sapiens with 6 samples.

Results

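The 59 genes described here lie on the short arm of human chromosome 17, in band 17p13, in a row that runs from MED11 at the telomeric end to FXR2 at the centromeric end. They were chosen by measured values: the window had been picked because its genes were lowered on 1 of the arrays described below, the array labelled TANGO siRNA. RefSeq (GRCh38.p14) lists 98 protein-coding genes between these ends, of which 59 are members and 39 are not. A ratio to control could be formed for 44 of the 59 members on at least 1 siRNA array, out of 13316 named genes in all. Because the TANGO siRNA array chose the window, the values of the members on that array are a description and support nothing by themselves.

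HSC3 is an established human cell line derived from a tongue squamous carcinoma. Its total RNA was labelled with Cy5 and hybridized to 6 one-colour whole-genome arrays, with 1 array for control cells and 1 for each siRNA, labelled MIA, MIA2, TANGO, MATE2 and LEMD1. The array methods describe the control cells as untreated, whereas the deposited design names a control siRNA. All 6 samples are otherwise the same line, and no dose, time or clone is given in the labels. A ratio below is the log2 of the quantile-normalized spot intensity on an siRNA array over that on the control array, and it was formed where the scanner had marked the spot good on both. Each condition has 1 array, so no ratio has an error, a replicate check or a test, and fixed folds of 1.5 and 2 were used. Every siRNA array was set against the same control array. The arrays measured RNA in whole cultures, in which fewer cells that use a gene and less RNA per cell cannot be told apart.

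The distal short arm of chromosome 17 is dense with short genes, and many of them are used by nearly every cell. They include the gene of the largest subunit of RNA polymerase II, translation factors, a proteasome subunit, parts of the nuclear pore and the kinetochore, and genes of autophagy and mitochondrial fat oxidation. They share a neighbourhood and not a pathway.

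Good gene spots numbered 27545 to 30628 per array. All 8 measured squamous epithelium markers were good on all 6 arrays, with a summed signal of 12999 to 36883, while the 5 leukocyte markers summed to 212 to 351 and PTPRC, COL3A1, DCN, CDH5 and KDR were near background on every array. The keratin KRT14 itself varied widely, with signals of 5354, 6483, 16779.6, 309, 2812 and 14440.4 in the order control, MIA, MIA2, TANGO, MATE2 and LEMD1, which is the order of all signal series below. The targeted genes did not follow the labels in every case. SLC47A2, which is another name of MATE2, gave 1509.8, 1334, 1575, 58.9, 79.6 and 1703, so it was lower on both the TANGO and the MATE2 array, with log2 ratios of -4.68 and -4.25. LEMD1 gave 278, 195, 42.3, 3192, 1011 and 27.6 and was near background on both the MIA2 and the LEMD1 array, at least 10.1-fold lower than control on LEMD1. A good MIA2 probe gave 155 on control and 169 on the MIA2 array, MIA was near background throughout, and MIA3, for which TANGO is a name, had no probe named for it. Array names below are therefore labels and not checked knockdowns, and the part of these differences in the members' values was not tested.

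Of the 59 members, 54 had an unmasked probe of their own. The probes of MED31 and CD68 were masked on the arrays, that of PFN1 was shared with another gene, and USP6 and C1QBP had no probe of their name. The probe was good on all 6 arrays for 40 members, on some arrays for 9, and near background on all of them for 5, namely ZFP3, PITPNM3, BCL6B, SLC16A11 and ACAP1. These filters keep genes with signal, so the counts below cover measured members and not all 59.

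On the TANGO array the measured members were on the whole lower than control. Their median log2 ratio was -0.69 (n = 42, quartiles -0.99 and -0.28), against -0.03 over all 12553 named genes. Of the 42, 34 lay below control, 22 were at least 1.5-fold lower and 5 at least 1.5-fold higher, and 10 were at least 2-fold lower and 1 at least 2-fold higher. Over all genes on this array, 51.9% lay below control. Of them 20.2% of all genes were at least 1.5-fold lower and 9.09% at least 2-fold lower, while 15.5% were at least 1.5-fold higher and 5.57% at least 2-fold higher. Past 2-fold among members without a ratio were ZNF232, at least 3.57-fold higher, and DVL2, at least 2.32-fold lower. The member just inside the 1.5-fold limit was DHX33 at -0.62 and the first outside it was ELP5 at -0.58, while at 2-fold these were MED11 at -1.08 and CTDNEP1 at -0.99.

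The MATE2 array, whose values did not choose the window, had lower members as well. The median was -0.47 (n = 43, quartiles -0.93 and 0.00) against -0.03 over all genes, 31 of 43 were below control, 19 were at least 1.5-fold lower (44.2%) and 2 at least 1.5-fold higher. Of all genes on this array, 52.2% were below control, and 22.4% and 15.2% were at least 1.5-fold lower and higher. At 2-fold, 10 members with a ratio were lower and none higher, where 11.7% and 5.93% of all genes were. Past 2-fold among members without a ratio were ZNF232, at least 4.53-fold higher, and DVL2, at least 2.31-fold lower. These shares of all genes are not the level to be reached without a change particular to the members. The MATE2 array shares its control with the TANGO array, and over 11906 genes 50.8% of those at least 1.5-fold lower on TANGO over MIA, a ratio without that control, were also at least 1.5-fold lower on MATE2 over control. A set picked as low on TANGO would then be lower on MATE2 too, and how far the members go beyond that was not tested. The member just inside the 1.5-fold limit was SLC25A11 at -0.68, and ZBTB4 at -0.50 was the first outside.

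On the other 3 arrays the member medians lay nearer to those of all genes, and the shares past 1.5-fold lower were close to the background on MIA and above it on MIA2 and LEMD1. The MIA array gave a median of -0.04 (n = 44), with 1 member at least 1.5-fold lower (SLC2A4) and 2 higher (DLG4 and SOX15), beside 2.36% and 2.51% of all genes. No member there was 2-fold changed, and of all genes 0.266% were lower and 0.391% higher by that much. The MIA2 array gave -0.13 (n = 42), with 10 members lower and 4 higher at 1.5-fold, beside 16.1% and 11.6%, and 2 lower and 1 higher at 2-fold, beside 5.20% and 3.30%. The LEMD1 array gave -0.10 (n = 44), with 9 lower and 3 higher at 1.5-fold, beside 12.4% and 8.17%, and 1 lower and none higher at 2-fold, beside 3.98% and 2.03%. Shares of members past 1.5-fold lower were 2.27% on MIA, 23.8% on MIA2 and 20.5% on LEMD1, and they were not tested.

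**Figure D1:**
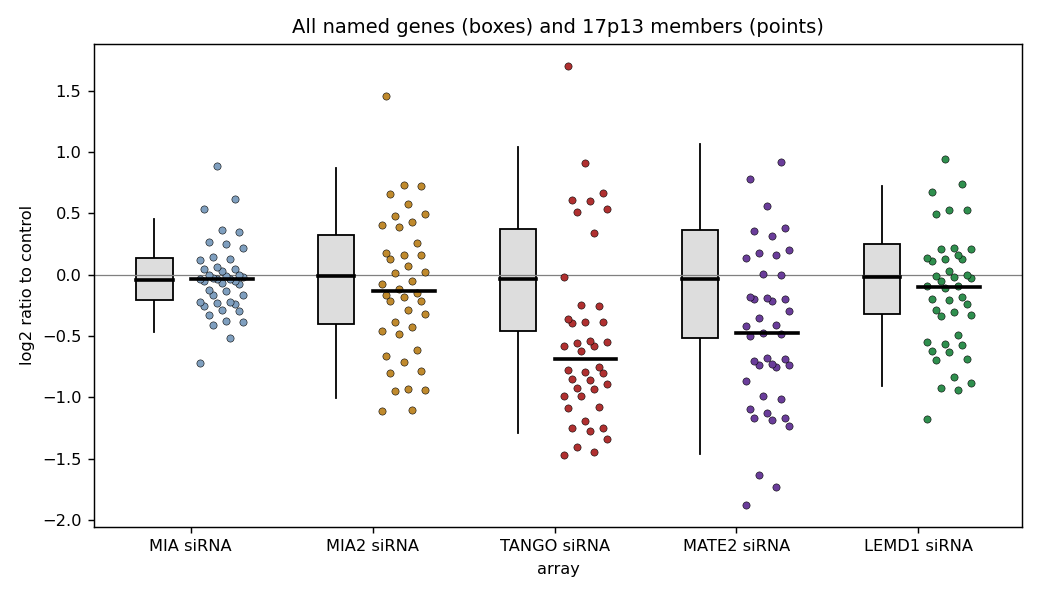
The log2 ratio to control is plotted for each siRNA array, with grey boxes for all named genes (quartiles, median line, whiskers from the 5th to the 95th percentile) and coloured points for the measured members with their median as a line. The member median sits at -0.69 on TANGO siRNA and -0.47 on MATE2 siRNA, and between -0.13 and -0.04 on the other 3 arrays.

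Leaving the control array out of the comparison gave like values. TANGO over MIA still rests on the array that chose the window, so its values are a description only. The members had a median of -0.55 on TANGO over MIA (n = 42), with 20 at least 1.5-fold lower beside 18.0% of all genes, and -0.45 on MATE2 over MIA (n = 43), with 17 lower beside 19.3%. Set directly against each other, TANGO over MATE2 gave a median of -0.12 for the 43 members and 0.04 for all genes, with 6 members at least 1.5-fold lower and 7 higher, beside 14.6% and 17.5% of all genes.

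The lower values were not spread evenly along the row. From MED11 to MIS12, the telomeric stretch of 24 members, 17 had a ratio on the TANGO array. All 17 were below control, beside 51.9% of all genes, with a median of -0.94. Of them 13 were at least 1.5-fold lower, beside 20.2% of all genes. ZNF232, also in this stretch, was near background on control and had no ratio. It was at least 3.57-fold higher on TANGO and 4.53-fold higher on MATE2. The same stretch on the MATE2 array had a median of -0.71, with 15 of 17 below control, beside 52.2% of all genes. There 11 were at least 1.5-fold lower, beside 22.4% of all genes. The next 11 members, NLRP1 to ASGR1, ran the other way on TANGO, with a median of 0.60 over 5 measured members. Of these 3 were at least 1.5-fold higher and 1, TXNDC17, lower, beside 15.5% and 20.2% of all genes. From DLG4 to GPS2 all 9 measured members were again below control on TANGO, beside 51.9% of all genes, with a median of -0.86. On MATE2 the median of this stretch was -0.42 (n = 10). From NEURL4 to FXR2 the members were mixed, with medians of -0.36 on TANGO and -0.41 on MATE2 (n = 11). The limits of these stretches were drawn after the values were seen. The TANGO array also chose the window, so the counts on it are a description only.

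**Figure D2:**
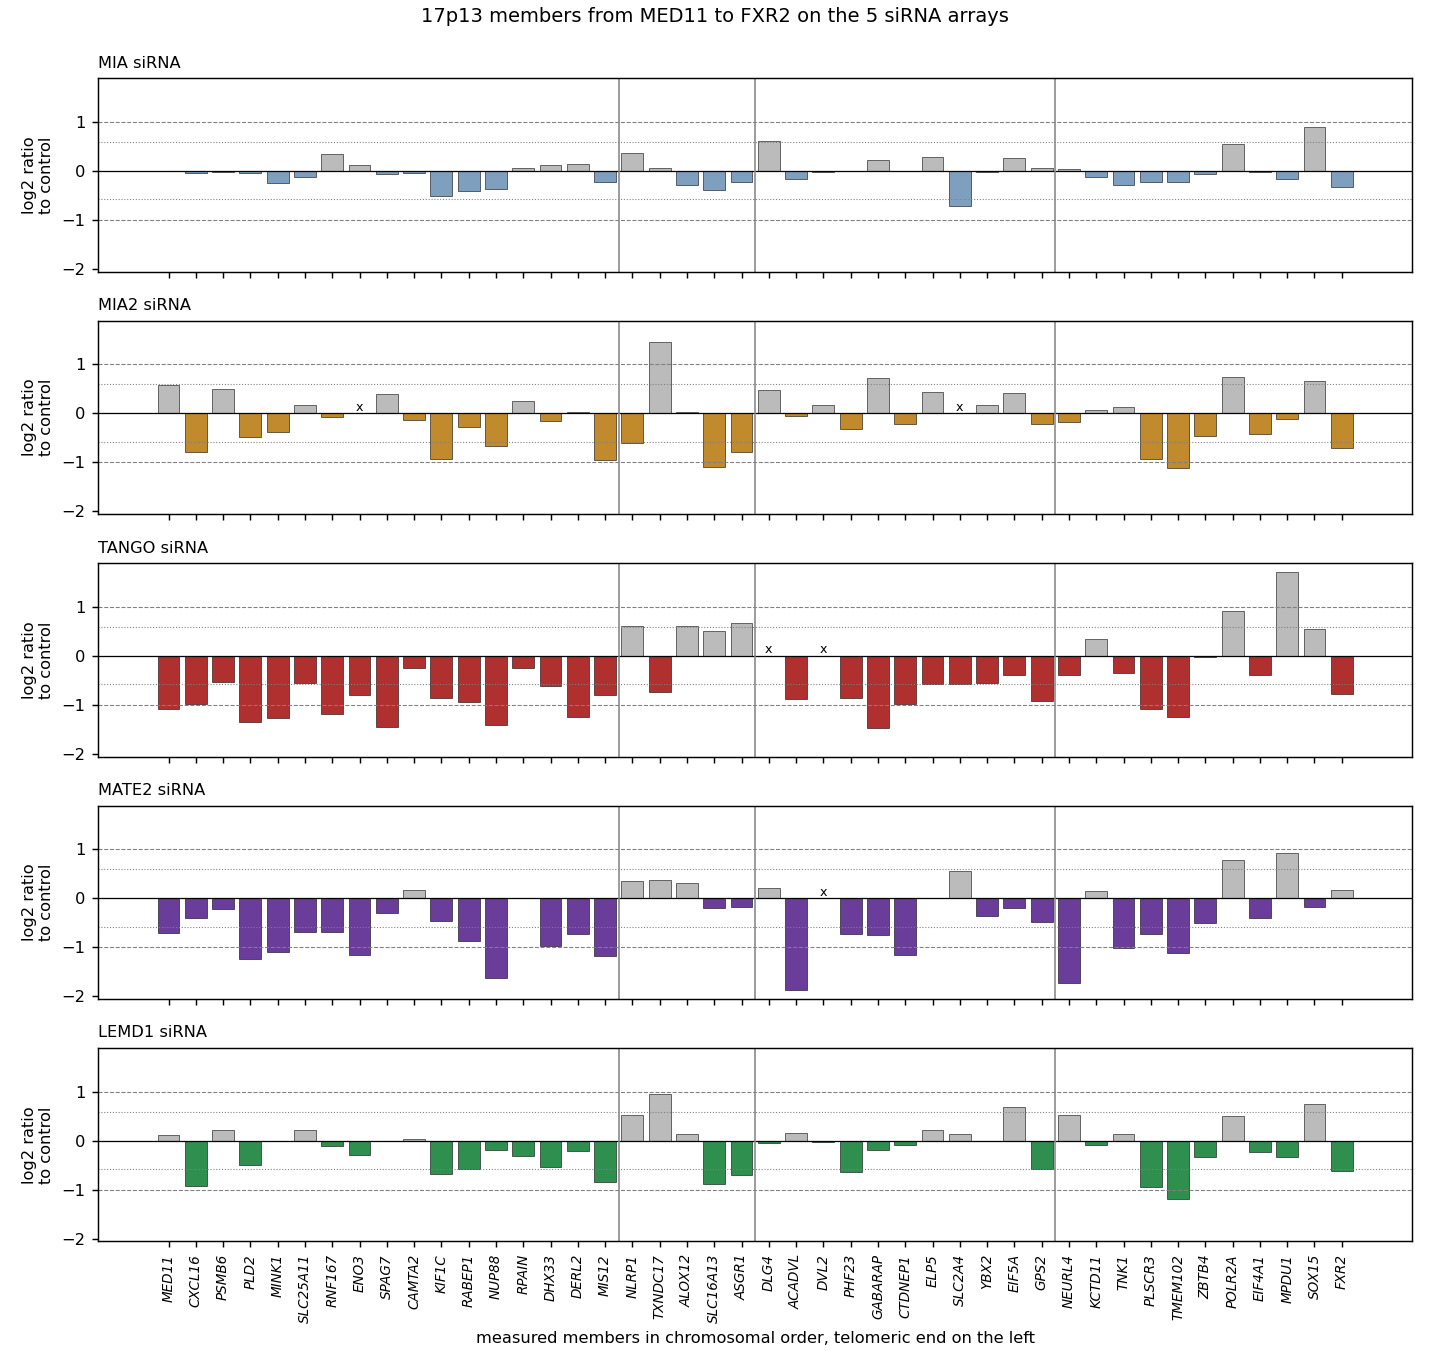
Bars give the log2 ratio to control of each measured member in chromosomal order, 1 panel per siRNA array, with dotted lines at 1.5-fold, dashed lines at 2-fold and vertical lines between the 4 stretches. Bars below 0 are coloured, bars above 0 are grey, and x marks a member without a ratio on that array. On TANGO siRNA all 17 members of the first stretch with a ratio point down and 4 of the 5 in the second point up. ZNF232 of the first stretch has no ratio on any array and is not drawn.

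Several members are neighbours that start head to head from 1 short stretch of DNA. The bases between the starts of 5 such pairs, from the RefSeq promoter table (GRCh38.p14, plus strand), are shown because they let the shared start be set beside the behaviour of both genes. Capitals mark 3 short motifs searched on both strands, the GC box GGGCGG, the CCAAT box and the ETS core CCGGAAG.
SLC25A11/RNF167, chr17:4940047-4940091: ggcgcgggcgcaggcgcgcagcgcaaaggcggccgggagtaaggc
DERL2/MIS12, chr17:5486179-5486373: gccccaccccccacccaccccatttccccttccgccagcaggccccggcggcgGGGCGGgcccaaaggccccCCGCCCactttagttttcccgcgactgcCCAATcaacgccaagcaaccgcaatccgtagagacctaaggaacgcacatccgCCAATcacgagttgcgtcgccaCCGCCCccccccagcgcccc
DLG4/ACADVL, chr17:7219837-7219937: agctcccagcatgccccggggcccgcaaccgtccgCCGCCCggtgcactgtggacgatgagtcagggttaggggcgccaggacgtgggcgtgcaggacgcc
CTDNEP1/ELP5, chr17:7251979-7252214: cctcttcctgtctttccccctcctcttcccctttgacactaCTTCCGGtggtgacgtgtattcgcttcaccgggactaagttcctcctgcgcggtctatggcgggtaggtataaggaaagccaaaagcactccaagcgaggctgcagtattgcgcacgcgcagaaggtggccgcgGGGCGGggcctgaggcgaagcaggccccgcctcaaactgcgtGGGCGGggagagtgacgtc
ZBTB4/POLR2A, chr17:7484250-7484365: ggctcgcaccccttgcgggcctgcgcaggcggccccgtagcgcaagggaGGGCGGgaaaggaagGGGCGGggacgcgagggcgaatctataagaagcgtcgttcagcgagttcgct

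The 45 bases between SLC25A11 and RNF167 held none of the motifs, the 195 bases between DERL2 and MIS12 held 3 GC boxes and 2 CCAAT boxes, and the 101 bases between DLG4 and ACADVL held 1 GC box. The 236 bases between CTDNEP1 and ELP5 held 2 GC boxes and 1 ETS core, and the 116 bases between ZBTB4 and POLR2A held 2 GC boxes. In windows of the same lengths, 16.8%, 39.8%, 31.5%, 42.1% and 33.5% of all 35116 promoters hold a GC box, 27.6% a CCAAT box at 195 bases and 8.30% an ETS core at 236 bases. A match is a match of letters and does not show that a factor binds.

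Partners of a pair were not always alike. On TANGO, SLC25A11 and RNF167 were at -0.55 and -1.20, and on MATE2 at -0.68 and -0.69. DERL2 and MIS12 were both lower on these arrays, but on MIA2 and LEMD1 MIS12 was at -0.94 and -0.84, while DERL2 stood at 0.02 and -0.21 on the probe used. A second DERL2 probe stood at -0.63 and -0.54 on these arrays, so that difference between the partners depends on the probe. CTDNEP1 and ELP5 were at -0.99 and -0.58 on TANGO and at -1.17 and 0.00 on MATE2, where a second ELP5 probe gave -0.47. DLG4 and ACADVL were at 0.20 and -1.88 on MATE2, while on TANGO DLG4 was near background and ACADVL stood at -0.89. POLR2A was above control on all 5 arrays. Its partner ZBTB4 was below control on all 5, from -0.50 on MATE2 to only -0.02 on TANGO.

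The members were also grouped by role, in 6 lists drawn with results known. Each count below stands beside the shares of all genes at least 1.5-fold lower, which were 20.2% on TANGO, 22.4% on MATE2, 16.1% on MIA2 and 12.4% on LEMD1, and TANGO counts follow from the choice of the window.

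Among the 14 members listed for transcription, 9 had a ratio on TANGO, with 3 at least 1.5-fold lower, 1 higher and a median of -0.55, and on MATE2 2 of 9 were lower (22.2%, like all genes), 1 higher and the median was -0.36. MED11, a subunit of the Mediator head that links activators to RNA polymerase II, gave signals of 875, 872, 1303, 414, 537 and 945. It was 2.12-fold lower on TANGO and 1.63-fold lower on MATE2, and highest on MIA2. POLR2A, the largest subunit of RNA polymerase II, gave 293, 425, 486, 550.0, 503 and 413, so control was the lowest of its 6 values and TANGO the highest, with ratios from 0.49 on LEMD1 to 0.91 on TANGO. GPS2, a subunit of a histone deacetylase corepressor, and PHF23, a PHD finger protein, were lower on TANGO at -0.93 and -0.86, and PHF23 also on MATE2 at -0.74 and LEMD1 at -0.63. SOX15, a member of the SOX family of DNA-binding proteins, was above control on 4 arrays, from 0.54 on TANGO to 0.89 on MIA, and at -0.19 on MATE2. CAMTA2, ELP5 and YBX2 stayed inside 1.5-fold on every array, and ZBTB4 did so too.

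The 7 members listed for translation, RNA and nuclear transport were all measured and all below control on TANGO, where 51.9% of all genes were. Of these members 4 were at least 1.5-fold lower, and their median was -0.62. On MATE2 5 of 7 were below control, 2 of 7 were at least 1.5-fold lower (28.6%) and the median was -0.29. NUP88, a nuclear pore protein, gave 512, 394, 323, 193, 166 and 451, with TANGO and MATE2 well under the other 4 arrays, 2.65- and 3.09-fold lower than control. SPAG7 gave 1166, 1112, 1531, 429, 951 and 1162 and was 2.72-fold lower on TANGO, whereas MATE2 was 1.23-fold lower. DHX33, an RNA helicase, was lower on both arrays, at -0.62 and -0.98. The RNA-binding protein FXR2, at the centromeric end of the row, gave 304, 243, 186, 178, 344 and 198, at least 1.5-fold lower than control on MIA2, TANGO and LEMD1 and not on MATE2. The abundant translation factors showed smaller differences. EIF4A1, the helicase of the cap-binding complex, gave 9279, 9064, 6913, 7092, 6976 and 7883, a spread of -0.42 to -0.03 over the 5 ratios. EIF5A, the translation factor that carries hypusine, gave 3319.6, 3956, 4403, 2538, 2896 and 5307. It was at -0.39 on TANGO and 0.68 on LEMD1, where a second EIF5A probe gave -0.88 and 0.07. RPAIN was inside 1.5-fold on all 5 arrays.

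Protein turnover, quality control and autophagy counted 7 members, 6 of them measured, with medians of -0.87 on TANGO (3 at least 1.5-fold lower) and -0.71 on MATE2 (4 lower). GABARAP, a member of the ubiquitin-like family that coats autophagosomes, gave 283, 329, 467, 102, 168 and 246. It had the lowest TANGO ratio of the 42 members with one, -1.47 (DVL2, near background there, has a bound only), was at -0.75 on MATE2, and stood above control on MIA2 at 0.72. DERL2, which serves the removal of misfolded proteins from the endoplasmic reticulum, gave 1344, 1483, 1364, 564, 807 and 1164, and RNF167, an E3 ubiquitin ligase of endosomes and lysosomes, gave 653, 830.0, 619, 285, 405 and 607. Both had their 2 lowest values on TANGO and MATE2, 2.38- and 1.67-fold under control for DERL2 and 2.29- and 1.61-fold for RNF167. NEURL4 gave 209.9, 214, 185, 159.9, 63.2 and 303 and was 3.32-fold lower on MATE2, the only array past 1.5-fold for this gene. PSMB6, a catalytic subunit of the proteasome, gave 4035, 3943, 5695, 2777, 3480.3 and 4658, with TANGO the lowest at -0.54 and no array past 1.5-fold. KCTD11, an adaptor of a ubiquitin ligase, was also inside 1.5-fold throughout.

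The group listed for cytoskeleton, membrane traffic and cell division had 6 of its 9 members measured, with all 6 at least 1.5-fold lower on TANGO (median -0.96), 5 of 6 on MATE2 (-1.02), 3 of 6 on MIA2 (-0.71) and 3 of 6 on LEMD1 (-0.63). PLD2, which makes phosphatidic acid, gave 223, 215, 159, 87.8, 94.8 and 158, and CTDNEP1, a phosphatase of the nuclear envelope, gave 5868, 5868, 5069, 2955, 2612 and 5512. In both the TANGO and MATE2 values were the 2 lowest, 2.53- and 2.35-fold under control for PLD2 and 1.99- and 2.25-fold for CTDNEP1. MIS12, a kinetochore protein, gave 1908, 1632, 992, 1095, 838 and 1069, and PLSCR3, a phospholipid scramblase of mitochondria, gave 3219, 2746, 1691, 1516, 1947 and 1675. Both were at least 1.5-fold lower on the MIA2 and LEMD1 arrays as well, with ratios of -0.94, -0.80, -1.19 and -0.84 for MIS12 and -0.93, -1.09, -0.73 and -0.94 for PLSCR3 in the order MIA2, TANGO, MATE2 and LEMD1. KIF1C, a kinesin motor, was below control on all 5 arrays, from -0.94 on MIA2 to -0.47 on MATE2. RABEP1, an effector of early endosome fusion, was lower mainly on TANGO (-0.94) and MATE2 (-0.87).

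Metabolic genes and transporters were more mixed, with 8 of 12 members measured on TANGO, 3 at least 1.5-fold lower and 2 higher (median -0.57), and on MATE2 3 lower, 1 higher and a median of 0.06. ACADVL, which starts the oxidation of very long fatty acids in mitochondria, gave 989.7, 883, 958, 533, 269.8 and 1109. It was 1.86-fold lower on TANGO and 3.67-fold lower on MATE2, the lowest member ratio of that array. ENO3, the muscle form of enolase, gave 171, 186, 137, 98.4, 76.0 and 140.1, of which the MIA2 spot was not marked good, and was 2.24-fold lower on MATE2. SLC25A11, the mitochondrial oxoglutarate carrier, was at -0.55 on TANGO and -0.68 on MATE2. MPDU1, needed for the use of dolichol-linked mannose in glycosylation, went the other way with 276, 247, 255, 898, 521 and 219, 3.25-fold higher on TANGO and 1.89-fold higher on MATE2. TXNDC17, a thioredoxin-like protein, gave 1051, 1085, 2881, 625, 1367 and 2025, so it was 2.74-fold higher on MIA2, 1.93-fold higher on LEMD1 and 1.68-fold lower on TANGO. SLC16A13, of the monocarboxylate transporter family, gave 274, 209, 127, 389.8, 238 and 149 and was 2.15-fold lower on MIA2 and 1.84-fold lower on LEMD1, with TANGO its highest value. The lipoxygenase ALOX12 was above 1.5-fold on TANGO alone, at 0.61.

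Signalling and immunity counted 10 members, with 6 measured on TANGO, 3 at least 1.5-fold lower and 2 higher (median -0.67). On MATE2 3 of 7 were at least 1.5-fold lower, none was higher and the median was -0.41. TMEM102 gave 476, 404, 220.5, 200.2, 218 and 210.4 and was similarly low on 4 arrays, 2.16-fold under control on MIA2, 2.38-fold on TANGO, 2.18-fold on MATE2 and 2.26-fold on LEMD1, but 1.18-fold on MIA. MINK1, a STE20-type kinase, gave 609, 512, 467, 252, 286 and 604, with TANGO and MATE2 2.42- and 2.13-fold lower and LEMD1 at the control level. TNK1, a tyrosine kinase, gave 233, 191, 254, 182, 115 and 257 and was 2.02-fold lower on MATE2. The chemokine gene CXCL16 was lower on MIA2 (-0.80), TANGO (-0.99) and LEMD1 (-0.92). NLRP1, the sensor of an inflammasome, and ASGR1, a lectin known from liver, were higher on TANGO, at 0.60 and 0.67, and lower on MIA2, at -0.61 and -0.79.

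**Figure D3:**
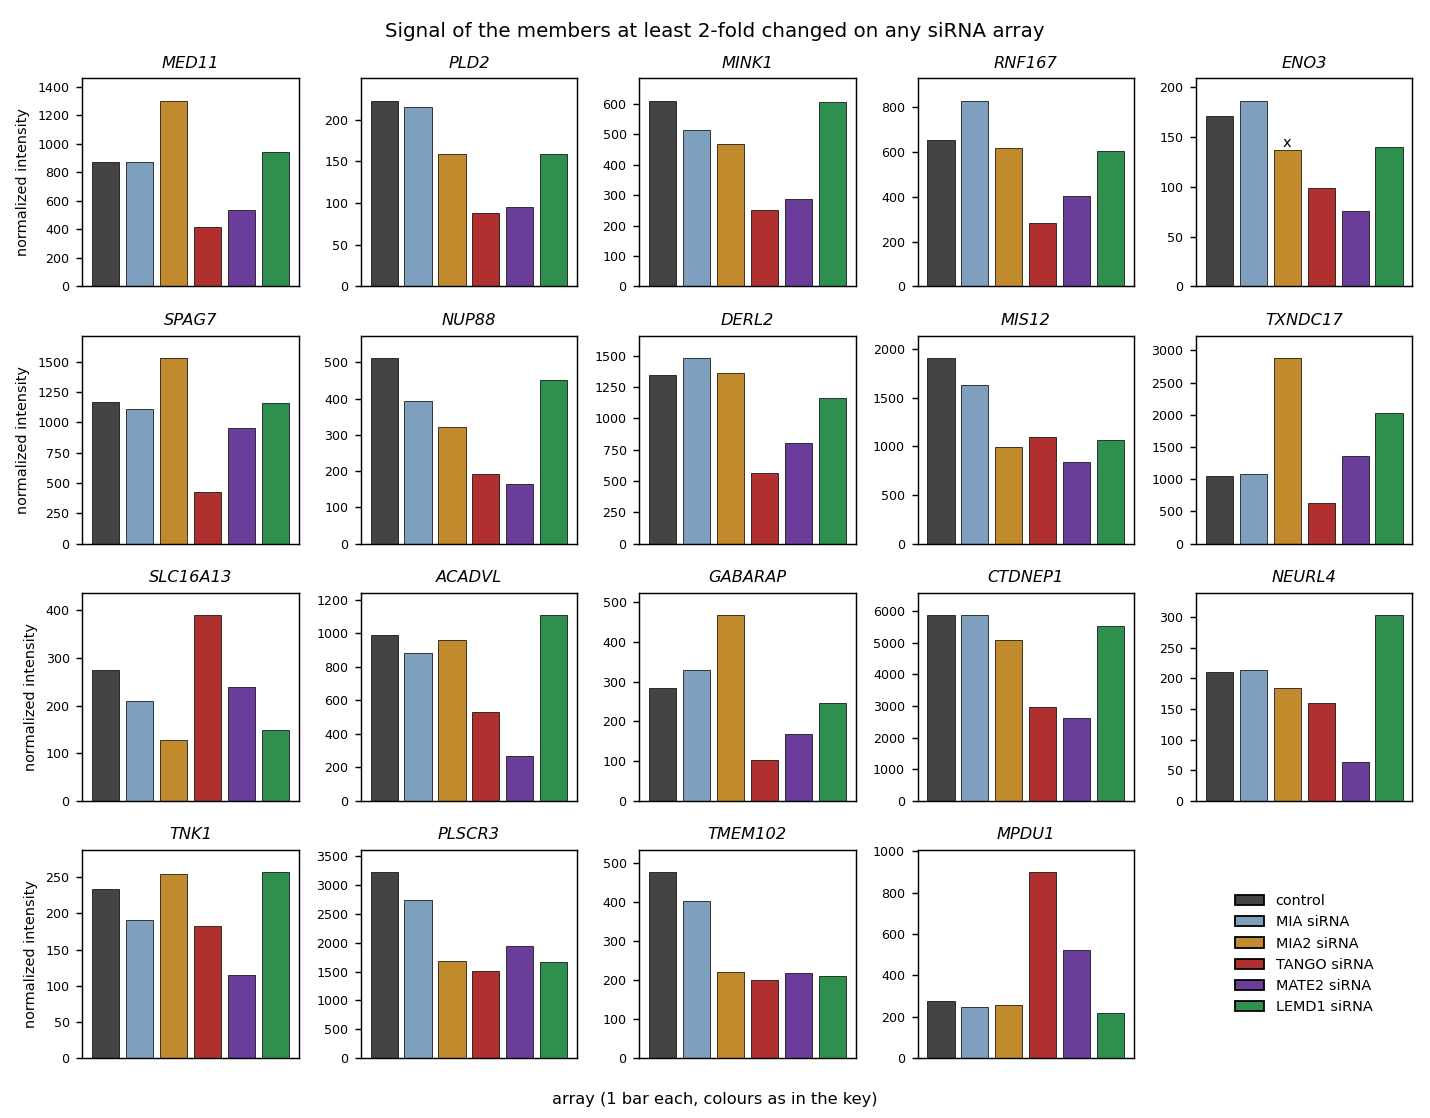
Normalized intensity on each of the 6 arrays (1 bar per array, each panel with its own linear axis from 0) for the 19 members at least 2-fold different from control on any siRNA array; x marks a spot not marked good. In most panels the TANGO siRNA and MATE2 siRNA bars are the shortest, while in TMEM102 and PLSCR3 the MIA2 siRNA and LEMD1 siRNA bars are about as short, and in MPDU1 the TANGO siRNA bar is the tallest at 898.

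Members that were good on some arrays only have bounds. DVL2, a transducer of Wnt signals, gave 72.7 on control and was near background on TANGO and MATE2, at least 2.32- and 2.31-fold lower, while its MIA, MIA2 and LEMD1 ratios were -0.02, 0.16 and -0.03. DLG4, a scaffold of synapses, was near background on TANGO alone, at least 1.88-fold lower. SLC2A4, the glucose transporter that responds to insulin, was at least 2.39-fold lower on MIA2 and at -0.72 on MIA. ZNF232, a zinc finger gene, was the opposite case, near background on control and good on TANGO and MATE2, at least 3.57- and 4.53-fold higher. ZMYND15 and SLC13A5 were good on control alone, with bounds of at least 1.06- to 1.86-fold and 1.19- to 1.67-fold lower on the 5 siRNA arrays. WSCD1 and ZNF594 were barely above background on MATE2, at least 1.30- and 1.13-fold higher, and for ZNF594 on LEMD1 no fold could be given. Each bound sets the bright signal against the higher of the dim spot's own signal and the lowest good signal of its array.

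Other probes of the same gene gave a partial check of these values. On TANGO, the second good probe stood at -0.77 for CXCL16, -1.16 for PLD2, -1.18 for MINK1, -0.88 for PHF23, -0.50 for ELP5, -0.88 for EIF5A and -0.33 for EIF4A1, all below control like the probe used. DERL2 was the exception, with -0.07 on its second probe against -1.25 on TANGO, although the pair stood at -0.78 and -0.74 on MATE2. For MINK1 the second probe was at -0.18 on MATE2, where the probe used was at -1.09. When all genes were split into 3 equal ranges of signal, the member medians on TANGO were -0.58 (n = 5), -0.57 (n = 14) and -0.85 (n = 23) from dim to bright, against -0.02 to -0.04 for all genes. On MATE2 they were -0.19 (n = 9), -0.75 (n = 11) and -0.48 (n = 23), so the order of the ranges was not the same on both arrays.

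The members whose 5 ratios lay nearest to the member medians of the 5 arrays were YBX2, EIF4A1, GPS2, SLC25A11 and PHF23, with a root mean square difference of 0.17, 0.19, 0.22, 0.25 and 0.27 over the 5 arrays. YBX2, a Y-box protein, gave 223, 220.1, 249, 152, 174 and 221.

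Partners of the members that are encoded elsewhere in the genome served as a comparison by function. The members were chosen on TANGO, so a gap between them and these partners on that array is a description only. The other Mediator subunits had medians of 0.03 on TANGO (n = 20, 4 at least 1.5-fold lower and 5 higher) and 0.04 on MATE2 (n = 17), where MED11 stood at -1.08 and -0.71. MED16 was the only listed Mediator subunit 2-fold changed on TANGO, at 1.28. The other RNA polymerase II subunits had medians of -0.14 on TANGO and 0.80 on MATE2 (n = 10 on both), with 6 of 10 at least 1.5-fold higher on MATE2, beside 0.78 for POLR2A. The other subunits of the 20S proteasome had medians of -0.13 on TANGO, 0.48 on MATE2 and 0.60 on MIA2 (n = 15), and the 3 that were 2-fold lower on TANGO were the immunoproteasome subunits PSMB8, PSMB9 and PSMB10 at -1.70, -2.51 and -1.39. The paralogues and close partners listed for members had medians of -0.18 on TANGO (n = 34, 10 lower and 6 higher at 1.5-fold) and -0.31 on MATE2 (n = 35). Those 2-fold changed on TANGO were DLG1 at -1.05, NUP62 at -1.06, MAP4K4 at -1.34, SLC16A3 at -1.93, SLC16A1 at 1.21 and SLC2A1 at 2.50. So the glucose transporter SLC2A1 was higher where the member SLC2A4 was at -0.58, and the nuclear pore protein NUP62 and the kinase MAP4K4 were lower like the members NUP88 and MINK1.

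**Figure D4:**
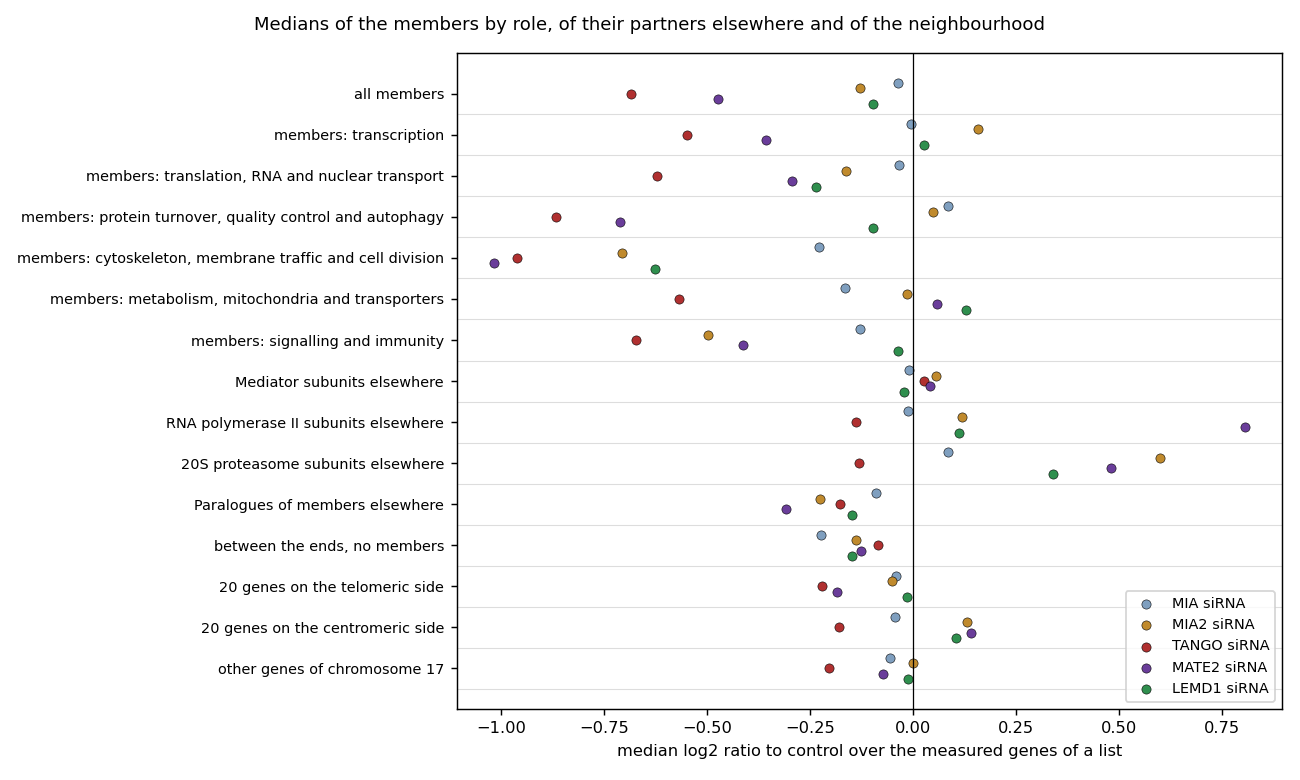
Each point is the median log2 ratio to control over the measured genes of a list on 1 siRNA array, for all members, the 6 role groups, partners and paralogues encoded elsewhere, and genes of the neighbourhood. All role groups lie between -0.96 and -0.55 on TANGO siRNA, and the partner and neighbourhood lists between -0.22 and 0.03. The members were chosen on that array, so this gap is a description only. On MATE2 siRNA the role groups lie between -1.02 and 0.06 and the other lists between -0.31 and 0.80.

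Genes around and among the members were less lowered. The 18 measured genes between MED11 and FXR2 that are not members had medians of -0.08 on TANGO (n = 14) and -0.13 on MATE2 (n = 16). On TANGO 4 were at least 1.5-fold lower and 4 higher, beside 20.2% and 15.5% of all genes. Since membership was decided with the TANGO values known, this gap on TANGO is no finding. Of the 4 that were lower, CHRNB1, CLDN7 and SENP3 were 2-fold lower on TANGO, at -2.04, -1.52 and -1.05. The 4 that were higher were ZNF232-AS1 at 0.94, ZNF594-DT at 0.755, FGF11 at 0.69 and SLC52A1 at 0.59. All of these genes were named after their values were seen. The 20 measured genes on the telomeric side had medians of -0.22 and -0.18 on TANGO and MATE2, and the 20 on the centromeric side -0.18 and 0.14. On the telomeric side PELP1 was at -0.81 on TANGO and -0.94 on MATE2, ALOX15 at 0.24 and 0.33, and ARRB2 was without a TANGO ratio and at -0.69 on MATE2. On the centromeric side SAT2 was at -1.34 and -0.50, and ATP1B2 at 0.64 and 0.30.

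The other 745 measured genes of chromosome 17 had a median of -0.20 on TANGO (n = 694, 27.2% at least 1.5-fold lower) and -0.07 on MATE2. The whole chromosome was the second lowest of the autosomes on TANGO at -0.23 and the eighth lowest on MATE2 at -0.09. The rest of 17p and 17q did not differ much from each other, with -0.19 and -0.21 on TANGO and -0.15 and -0.06 on MATE2. A running median over 21 measured genes was lowest within the row at SPAG7 on TANGO, at -0.82, and at SLC25A11 on MATE2, at -0.68. The lowest value anywhere on the chromosome was -0.83 at CENPX on TANGO, outside the row, and -0.68 at ARRB2 on MATE2, just beside it. Over 11 or 41 genes in place of 21, the lowest TANGO value of the chromosome fell within the row, at -1.03 and -0.75. On MATE2 the lowest values with these windows lay elsewhere on 17p, at RILP and VPS53. That the row was among the lowest stretches of chromosome 17 on TANGO follows from its choice on that array. It was not the only low stretch there.

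**Figure D5:**
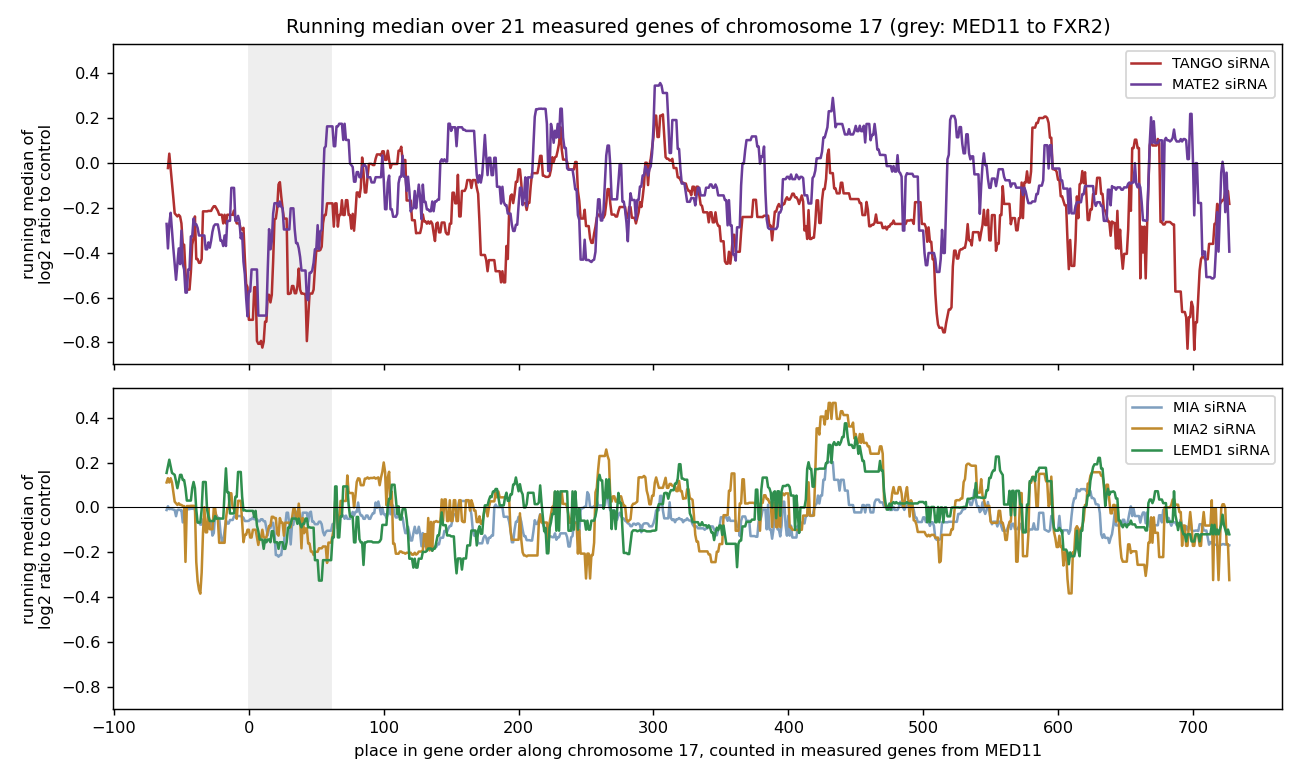
The running median of the log2 ratio to control over 21 measured genes is drawn along chromosome 17 in gene order, counted in measured genes from MED11, with the row from MED11 to FXR2 in grey. On TANGO siRNA (top, red) it reaches -0.82 in the row and -0.83 near the far end of the long arm, and the MIA siRNA, MIA2 siRNA and LEMD1 siRNA lines (bottom) stay above -0.40.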

How the data were processed

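HSC3 cells were measured under control and siRNA conditions on 6 one-colour CodeLink arrays, 1 array each, and groups were taken from the labels. Per the file headers, the deposited intensity of each spot was exported by the authors with CodeLink Expression Analysis 5.0.0.31312, as the spot mean less local background. The authors' own quantile-normalized table of linear intensity was used as an alternative.

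From the scanner values, 320 masked gene probes were left out, 53103 were quantile normalized over 6 arrays, floored at 1 and set on a log2 scale. A ratio needed a good flag on both arrays, and the brightest probe of a gene was used. Symbols came from the platform table (23311 probes) or from accessions (649), while 898 probes matched several genes and 28245 were not named. Folds of 1.5 and 2 were fixed and no test was run. Precision is limited by the number of arrays, and dim spots by their distance from background.

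Members, lists and stretches were chosen with earlier results of these data known. Signals are given for members at least 2-fold changed on any siRNA array, the 6 members of highest control signal, both end members and a few more chosen after their values were seen. Other genes named are among the 3 nearest on either side, of which not all are reported here, and listed partners 2-fold changed on the TANGO siRNA array, with any others named as chosen later. Promoter composition was not compared, because 79.7% of the members had a sequence in the table (79.9% of all genes with a TANGO siRNA ratio), under the minimum of 80% set for such a check. Python 3.11.15 (numpy 2.4.6, pandas 2.3.3), R 4.3.3 and limma 3.58.1 were used.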

Additional observations from a re-analysis of the deposited data

How the results depend on the processing

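The member medians kept their direction under 11 alternatives of scaling, background, flags, probes and comparator, with ranges of -0.06 to -0.03 on MIA siRNA, -0.16 to -0.04 on MIA2, -0.83 to -0.52 on TANGO, -0.53 to -0.41 on MATE2 and -0.20 to -0.09 on LEMD1. The MIA siRNA array has 10 of these alternatives, as it cannot be its own comparator. The median of all genes on MIA siRNA was also below control in each, from -0.06 to -0.03. The member median less that of all genes ran from -0.02 to 0.02 there, while on the other arrays the member median stayed the lower. Members at least 1.5-fold lower numbered 19 to 28 on TANGO and 14 to 24 on MATE2. The members measured and the shares of all genes moved with the setting. They ran from 33 to 54 members and 14% to 24.1% on TANGO, and from 32 to 54 and 16.3% to 25.6% on MATE2. On MIA siRNA the count of 1 of 44, beside 2.36% of all genes, became 0 with normexp, without background correction, with 50 added to the signal and with bright probes alone. All genes gave 0.562% to 1.43% under these. Without the flag filter it became 4 of 54, beside 10.2%. On MIA2 the count of 10 of 42, beside 16.1% of all genes, became 6 without background correction, beside 10.4%, and 6 with MIA siRNA as comparator, beside 11.1%. On LEMD1 the count of 9 of 44, beside 12.4%, became 14 of 54 without the flag filter, beside 17.4%. It became 6 of 44 with normexp, without background correction and with 50 added, beside 7.4% to 8.07%. The 25 member values past 2-fold kept their direction under every alternative that gave them, but with normexp 16 of 25 were still 2-fold, without background correction 15, with 50 added 16, with MIA siRNA as comparator 17 and with the mean over probes 23. Bright probes alone gave 20 of 20 and the other alternatives 25 of 25, and the causes of these shifts were not tested. No paired analysis was possible because each condition has 1 array.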
